A study of Mus musculus with 6 samples.

Results

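The genes described here are 10 chromatin regulators linked to lymphomas of the germinal center (GC): *Tet2*, *Kmt2d*, *Kmt2c*, *Crebbp*, *Ep300*, *Ezh2*, *Hdac3*, *Arid1a*, *Dnmt1* and *Dnmt3a*. They were chosen by symbol, by a rule that used no measured value, and are 10 of the 31053 features of the count matrices. Each symbol had 1 feature in every library, so all 10 are accounted for. The levels of these genes were described across the states of mouse GC B-cells and between 2 genotypes.

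The data are single cell RNA-seq counts of unique molecular identifiers (UMIs, one per captured transcript molecule) from 6 libraries of mouse GC B-cells. All 6 carry the *Cγ1*-Cre allele, which is expressed in B-cells that enter the GC reaction, so the controls carry Cre as well. There were 3 libraries from Cre mice with both *Smc3* alleles intact (*Smc3* wt/wt, labelled WT Control) and 3 from Cre mice that lose 1 *Smc3* allele in those cells (*Smc3* wt/-, labelled *Smc3* +/-). *Smc3* encodes an ATPase subunit of cohesin, the ring that holds chromatin loops. The study describes the material as spleen cells sorted a little over a week after immunization with sheep red blood cells. Cells were taken from 6 *Smc3* wt/wt and 3 *Smc3* wt/- mice, but how the mice map to the libraries was not stated, no age is given in the labels, and B-cells that never expressed Cre keep both alleles in either group. Sex, read from Y-linked and *Xist* transcripts, was male, male and female in the *Smc3* wt/wt libraries, replicates 1 to 3. In the *Smc3* wt/- libraries it was female, male and female. P-values measure only the spread between these libraries.

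One library stood apart. Immunoglobulin transcripts took 51.9% of the UMIs of *Smc3* wt/- replicate 2 and 2.37 to 3.9% in the other 5, and 1753 of the 2077 plasma-lineage cells and 590 of the 688 myeloid-like cells came from it. Values that moved without this library by over 1.5 times, or whose call it changed, are given without it too, and levels are in CPM, the counts of UMIs scaled to a common total outside immunoglobulin genes. Library totals ran from 5223325 to 35354257 UMIs, and 20847 cells were kept. Pairs of libraries shared 4 to 43 barcode sequences. Transcripts of the targeted gene did not settle the labels, since the counts are per gene and do not resolve the deleted exon. How far loss of 1 allele should lower such counts was not tested. Over all kept cells *Smc3* stood at 149 to 159 in the *Smc3* wt/wt libraries. In *Smc3* wt/- replicates 1, 2 and 3 it stood at 151, 60.1 and 165, so only replicate 2 was lower. Within CB-like cells replicate 2 stood at 131 and the other libraries at 118 to 147. In the 5 other classes it was the lowest library, from 145 against 166 to 194 in S-phase cells to 43.9 against 99.4 to 125 in plasma-lineage cells.

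Cells were clustered without the 10 genes, *Smc3* or the partner genes listed below, and clusters were named from their leading transcripts. Clustering and testing used the same cells, however, and p-values between states are too small for that reason. The 6 B lineage classes were centroblast-like cells led by mitotic genes such as *Cdc20* and *Ccnb2* (CB-like, 2922 cells), S-phase GC B-like cells led by *Ung*, *Cdc6* and *Mcm6* (5557), recycling-like cells with nucleolar and chaperone genes such as *Hspd1* and *Srm* (2033), centrocyte-like cells led by *Nfkbid*, *Il4i1* and *Cd83*, with *Myc* among the first 10 genes (CC-like, 1371), naive or memory B-like cells with *Klf2*, *Ccr6* and *Cd38* (1834) and plasma-lineage cells with *Jchain*, *Sdc1* and *Prg2* (2077). The labelled cell type, GC B-cells, does not cover the last 2. *Sdc1*, a plasma cell marker, stood at 147 and 344 in the plasma-lineage clusters and at 0.112 to 2.04 in the other 5 classes, and *Klf2* and *Cd38*, which are low in GC B-cells, were among the 10 leading genes of the naive or memory B-like cluster. A further 3766 cells, in a cluster led by haemoglobin genes with the B-cell gene *Cd79a* at 2520, received no name and were not tested.

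As background, GC B-cells alternate between rapid division in the dark zone and selection in the light zone, and then leave as memory B-cells or plasma cells. The 10 proteins write, erase or read the chromatin marks that hold these states apart. DNMT3A places new DNA methylation, DNMT1 copies it onto the daughter strand after replication and TET2 oxidizes it. EZH2 places the repressive H3K27 methyl mark as the catalytic subunit of the Polycomb complex PRC2, KMT2C and KMT2D place H3K4 methylation at enhancers, CREBBP and EP300 acetylate histones there, HDAC3 removes acetyl groups within NCoR complexes and ARID1A is a subunit of the BAF nucleosome remodeler.

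**Figure D1:**
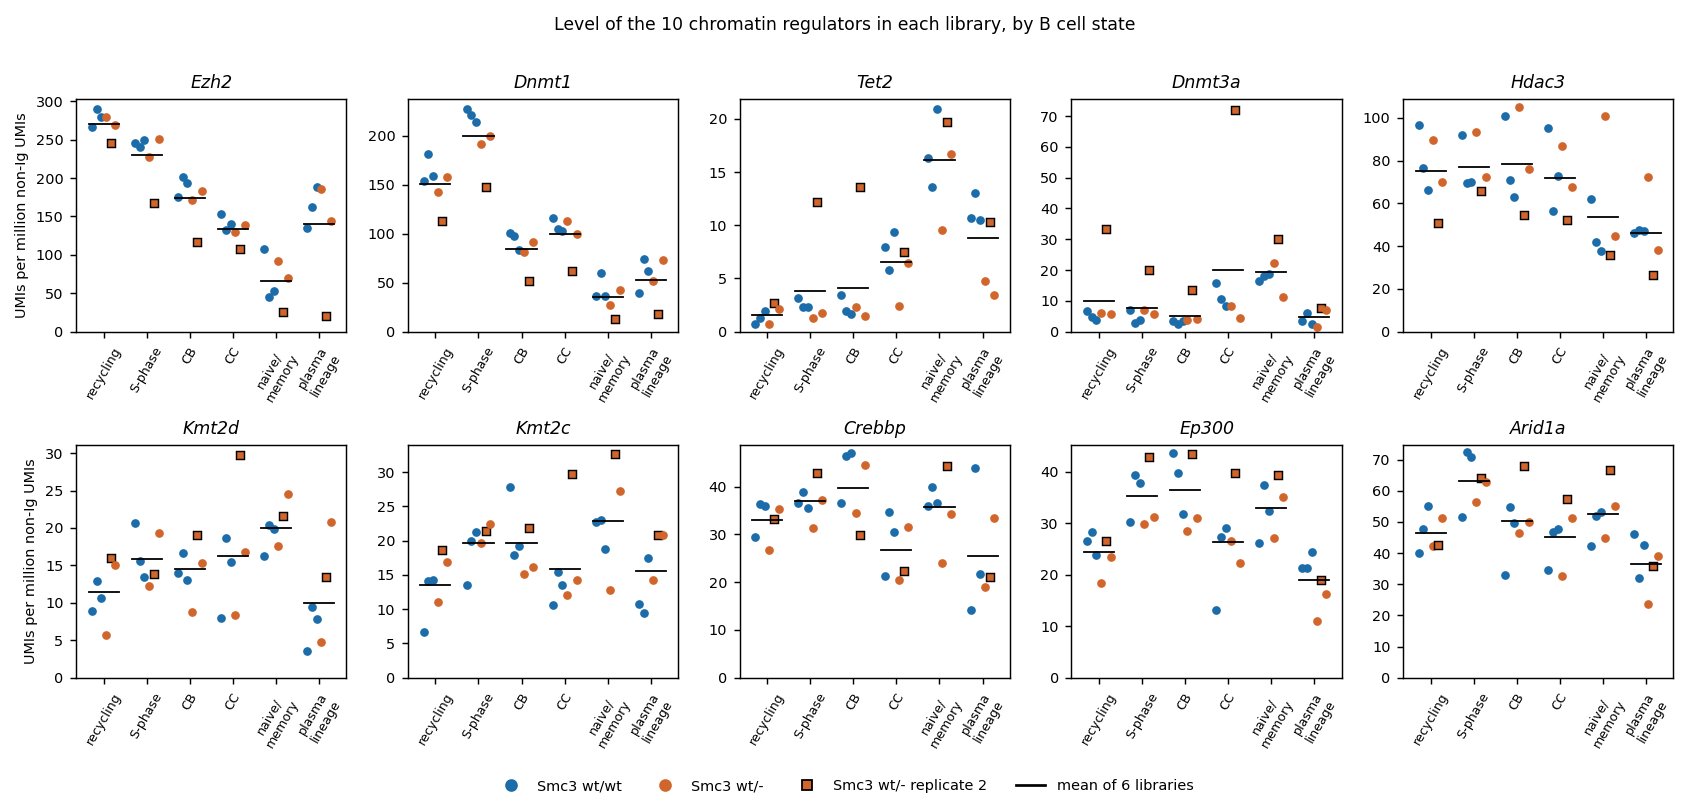
Level of each of the 10 genes in CPM outside immunoglobulin genes (y axis, linear, a scale of its own per gene) in the 6 B lineage classes (x axis); points are libraries (blue *Smc3* wt/wt, orange *Smc3* wt/-, outlined square *Smc3* wt/- replicate 2) and bars are means of 6 libraries. *Ezh2* and *Dnmt1* fell from the recycling-like and S-phase classes to the naive or memory B-like class, *Tet2* was highest in the latter, and the outlined square was the highest *Dnmt3a* point in each class.

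*Ezh2* and *Dnmt1* were highest in the recycling-like and S-phase classes and lowest in naive or memory B-like cells. *Tet2* and *Dnmt3a* were low in CB-like cells and several-fold higher in CC-like and naive or memory B-like cells. *Kmt2d*, *Kmt2c*, *Crebbp*, *Ep300*, *Hdac3* and *Arid1a* had fitted differences from CB-like cells of at most 0.66 on the log2 scale in either direction. These levels are shares of a class's RNA. The median UMIs per cell were 14620 in the recycling-like and 2454 in the naive or memory B-like cluster, and counted as UMIs per cell the class with the highest mean changed for 9 of the 10 genes, to plasma-lineage cells for *Tet2* and to recycling-like cells for the other 8, with *Ezh2* highest in recycling-like cells on both scales.

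*Ezh2* was highest in recycling-like cells, where its level was 266, 290 and 279 in the *Smc3* wt/wt libraries and 279, 246 and 269 in the *Smc3* wt/- libraries, replicates 1 to 3 each. In S-phase GC B-like cells it was 246, 241 and 250 against 227, 167 and 251, and in CB-like cells 176, 201 and 194 against 172, 117 and 183. Each library stood higher in recycling-like than in S-phase cells and higher in S-phase than in CB-like cells. CC-like cells held 153, 133 and 140 against 130, 107 and 139, whereas the naive or memory B-like class held 108, 45.1 and 53.3 against 92.6, 25.3 and 69.3. The class means were thus 271 ± 15.0, 230 ± 32.4, 174 ± 29.9, 134 ± 15.4 and 65.5 ± 30.7 (SD, n = 6). In edgeR's quasi-likelihood test over 8801 genes with the library as a block, recycling-like cells exceeded CB-like cells by 0.78 on the log2 scale (SE 0.19, adjusted p = 0.000613) and naive or memory B-like cells fell by 1.34 (SE 0.22, adjusted p = 3.75e-06). The S-phase difference of 0.46 (adjusted p = 0.0627) and the CC-like difference of -0.31 (adjusted p = 0.215) did not pass, but both passed without *Smc3* wt/- replicate 2 (0.41, adjusted p = 1.96e-07, and -0.41, adjusted p = 8.75e-06). With finer clustering (resolution 1, 3894 instead of 2922 CB-like cells) the recycling-like difference was 0.36 (adjusted p = 0.0774), the CC-like -0.71 (adjusted p = 0.00268) and the naive or memory B-like -1.89 (adjusted p = 3.09e-09). Without integration the last was -2.46 (adjusted p = 9.02e-10).

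In plasma-lineage cells *Ezh2* depended on the library. Its level was 135, 163 and 189 in the *Smc3* wt/wt libraries and 186, 21 and 144 in the *Smc3* wt/- libraries, and only replicate 2 of the latter was far below the rest. The class mean was 140 ± 62.1 over 6 libraries and 164 ± 24.2 over 5 without it. The class joined 2 clusters. Plasmablast-like cells, with the proliferation marker *Mki67* at 206, had a mean *Ezh2* level of 158 ± 56.7, whereas plasma cell-like cells had *Mki67* at 14.2, and 1403 of the 1485 plasma cell-like cells came from that library. In the fit over 6 libraries the class did not differ from CB-like cells (-0.07, adjusted p = 0.771), but it passed at the finer resolution (-0.44, adjusted p = 0.0419). In *Smc3* wt/- replicate 2 *Ezh2* was at 50.7 in plasmablast-like and at 12.3 in plasma cell-like cells. The other 5 libraries held 12 to 23 plasma cell-like cells each, with 0 to 2 *Ezh2* UMIs, too few to give a level.

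*Dnmt1*, the maintenance methyltransferase, peaked in S phase itself. S-phase GC B-like cells held 227, 221 and 214 in the *Smc3* wt/wt libraries and 191, 148 and 200 in the *Smc3* wt/- libraries, and recycling-like cells 154, 181 and 159 against 143, 113 and 158. CC-like cells held 116, 105 and 103 against 113, 62.1 and 99.2, and CB-like cells, which are past S phase by their leading genes, 101, 97.5 and 83.1 against 81.7, 51.7 and 91.0. Plasma-lineage cells had 39.1, 74.5 and 61.8 against 52.0, 18.0 and 72.7, whereas the naive or memory B-like class had 35.9, 59.5 and 36.6 against 27.2, 12.9 and 42.1. *Smc3* wt/- replicate 2 was lowest in every class, yet all 6 libraries kept this order of the 6 classes.

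Against CB-like cells, *Dnmt1* was 2.49-fold higher in S-phase cells (log2 1.31, SE 0.12, adjusted p = 1.78e-10), 1.97-fold higher in recycling-like cells (0.98, SE 0.12, adjusted p = 1.79e-08) and 2.02-fold lower in naive or memory B-like cells (-1.02, SE 0.15, adjusted p = 5.58e-07). At the finer resolution these were 0.57 (adjusted p = 0.000129), 0.17 (adjusted p = 0.204) and -1.76 (adjusted p = 2.22e-12). The CC-like difference of 0.33 (SE 0.13, adjusted p = 0.0379) was the least stable call. Without a count filter it was 0.28 (adjusted p = 0.0879), with doublets kept 0.29 (adjusted p = 0.0607), with immunoglobulin genes kept 0.28 (adjusted p = 0.072) and with DESeq2's size factors 0.26 (adjusted p = 0.0921). It became -0.30 (adjusted p = 0.0479) at the finer resolution and -0.46 (adjusted p = 0.0123) without integration of the libraries, and it was lost without *Smc3* wt/wt replicate 1 (0.32, adjusted p = 0.0707), 2 (0.29, adjusted p = 0.095) or 3 (0.31, adjusted p = 0.131) and without *Smc3* wt/- replicate 1 (0.21, adjusted p = 0.256) or 3 (0.35, adjusted p = 0.0676). For plasma-lineage cells the value was -0.29 (adjusted p = 0.0696), which passed under DESeq2 (-0.40, adjusted p = 0.00174) and without *Smc3* wt/- replicate 2 (-0.25, adjusted p = 0.0426), and was -0.94 (adjusted p = 1.61e-07) at the finer resolution.

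Since *Ezh2* and *Dnmt1* moved together over the classes, a stretch upstream of each RefSeq start site is shown (GRCm38). *Ezh2* lies on chromosome 6 (47530139 to 47595341, minus strand), and the 125 bases at chr6:47595059-47595183 cover positions 153 to 29 before the start, outside annotated exons. *Dnmt1* lies on chromosome 9 (20907209 to 20959888, minus strand), and the 30 bases at chr9:20952830-20952859 cover positions 236 to 207 before the start of 1 of its 3 windows and lie in an annotated exon. Capitals mark matches to CCAAT (the box bound by NF-Y, on either strand) and to TTTCGCGC (an E2F motif, on either strand), and both sequences read 5′ to 3′ on the minus strand.
Ezh2: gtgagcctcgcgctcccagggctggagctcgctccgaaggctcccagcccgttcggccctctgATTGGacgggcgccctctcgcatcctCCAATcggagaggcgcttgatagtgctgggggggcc
Dnmt1: CCAATTGGtttccgcgcGCGCGAAAaagcc
In the 250 bases before each start, *Ezh2* had 3 CCAAT matches in 1 window and *Dnmt1* 7 in 3 windows. CCAAT occurred in 33.8% of the 32851 windows of all genes, so its presence is common. TTTCGCGC occurred in 0.256% of them. Counting TTTGGCGC, TTTCCCGC and TTTGCCGC as well, an E2F match occurred in 1.86% of windows and, among the genes described here, in *Dnmt1* (1 match) and *Arid1a* (1 match in 2 windows). No CCAAT or E2F match was found in the windows of *Tet2*, *Kmt2d*, *Kmt2c*, *Crebbp*, *Ep300* or *Dnmt3a*. In the printed *Dnmt1* stretch CCAATTGG holds a match on each strand, and these overlap. A match is a description of letters and not a measured binding site, and *Hdac3* was not searched.

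*Tet2*, which starts the removal of DNA methylation, was highest in naive or memory B-like cells. It was rare, with 580 UMIs in all kept cells (18 to 220 per library). Naive or memory B-like cells held 16.3, 13.6 and 20.9 in the *Smc3* wt/wt libraries and 9.58, 19.7 and 16.7 in the *Smc3* wt/- libraries, and CC-like cells 7.94, 5.76 and 9.37 against 2.41, 7.45 and 6.42. In CB-like cells it was at 3.49, 1.95 and 1.68 against 2.29, 13.6 and 1.51, and in recycling-like cells at 0.738, 1.27 and 1.96 against 0.738, 2.66 and 2.11. The naive or memory B-like values lay above the recycling-like values in all 6 libraries with no overlap. In CB-like and S-phase cells, *Smc3* wt/- replicate 2 stood far above the other 5 libraries, on 5 UMIs (13.6, 95% Poisson interval 4.42 to 31.7) and 8 UMIs (12.2, interval 5.28 to 24.1). These intervals cover counting error only. Without it the CB-like mean was 2.18 in place of 4.09, and the S-phase mean 2.17 in place of 3.85.

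*Tet2* was 7.64-fold higher in naive or memory B-like than in CB-like cells (log2 2.93, SE 0.32, adjusted p = 2.3e-09), 4.81-fold higher in plasma-lineage cells (2.27, SE 0.35, adjusted p = 1.13e-06) and 3.13-fold higher in CC-like cells (1.65, SE 0.36, adjusted p = 0.000286). Without *Smc3* wt/- replicate 2 these were 3.26, 2.43 and 1.87, and as plain log2 differences of levels, with no TMM scaling, they were smaller (2.05, 1.16 and 0.83). S-phase (0.17, adjusted p = 0.759) and recycling-like cells (-0.29, adjusted p = 0.499) did not differ from CB-like cells beyond the spread. Markers of other cells moved with the naive or memory B-like rise. The summed level of 19 T cell markers, of which 17 had UMIs in naive or memory B-like and 18 in CB-like cells, was 300 to 374 in naive or memory B-like cells and 106 to 159 in CB-like cells. Of the defining genes, *Cd3e* was at 0 in 4 of 6 libraries of either class, whereas *Trac* was above 0 in 6 naive or memory B-like libraries (0.85 to 6.52) and at 0 in 2 CB-like libraries (at most 2.75). The 41 myeloid markers, 36 with UMIs in each of these classes, summed to 3000 to 3650 in naive or memory B-like cells and, outside *Smc3* wt/- replicate 2, to 956 to 1200 in CB-like cells. This list holds *Plac8*, a leading gene of the naive or memory B-like cluster itself. Among single myeloid genes, *S100a8* was at 0 in 5 naive or memory B-like libraries and at 25.9 in *Smc3* wt/- replicate 2, where CB-like cells had 21.8. *Lyz2*, outside that library, was at 2.09 to 9.79 in naive or memory B-like and at 0 to 7.34 in CB-like cells. Within that library the *Lyz2* levels were 16.6 and 32.6. *C1qa* reached 6.28 in naive or memory B-like cells, with 2 libraries at 0, against at most 1.74 in CB-like cells. *Tet2* itself averaged 15.2 in T cell-like and 19.5 in myeloid-like cells. In CC-like cells the T cell markers (60.8 to 166) overlapped the CB-like range, and outside *Smc3* wt/- replicate 2 the myeloid markers (1090 to 1200) lay within it. In plasma-lineage cells the T cell markers stood at 72.3 to 121 and the myeloid markers, outside that library, at 1370 to 1690, above the CB-like range. Within that library the plasma-lineage myeloid sum was 3480. There *S100a8* was at 69.8 against at most 0.871 in the others, and *Lyz2* at 39.7 against at most 8.28. What part these cells have in the *Tet2* differences was not tested.

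*Dnmt3a*, the de novo methyltransferase, was higher in naive or memory B-like, CC-like and recycling-like cells than in CB-like cells. It counted 882 UMIs. Naive or memory B-like cells held 16.3, 17.9 and 18.8 in the *Smc3* wt/wt libraries and 22.4, 30.2 and 11.4 in the *Smc3* wt/- libraries, against 3.49, 2.59 and 3.35 and 3.67, 13.6 and 4.10 in CB-like cells. CC-like cells held 15.9, 10.6 and 8.43 against 8.42, 72.1 and 4.44. The value of 72.1, from 29 UMIs (95% Poisson interval 48.3 to 103), was in *Smc3* wt/- replicate 2, which was the highest library in all 6 classes, and the CC-like mean was 20 ± 25.8 with it and 9.55 without it. Over 6 libraries naive or memory B-like cells exceeded CB-like cells 4.29-fold (log2 2.10, SE 0.34, adjusted p = 3.12e-06), CC-like cells 3.16-fold (1.66, SE 0.34, adjusted p = 0.00014) and recycling-like cells 1.71-fold (0.78, SE 0.30, adjusted p = 0.0282). Without that library the values were 2.43, 1.32 and 0.68, all called. The recycling-like call was lost without *Smc3* wt/wt replicate 1 (0.77, adjusted p = 0.0544) or 2 (0.58, adjusted p = 0.141) or *Smc3* wt/- replicate 1 (0.66, adjusted p = 0.101), under DESeq2 (0.75, adjusted p = 0.0525) and at the finer resolution (0.65, adjusted p = 0.0529). Plasma-lineage cells stood at 1.58 to 7.59, a difference from CB-like cells of 0.18 (adjusted p = 0.717).

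Myeloid transcripts were also high in some classes of *Smc3* wt/- replicate 2 where *Dnmt3a* or *Tet2* was. In the 590 myeloid-like cells of that library *Dnmt3a* was at 37.1 (64 UMIs, 95% Poisson interval 28.5 to 47.3), below its CC-like level of 72.1, and in T cell-like cells it averaged 27.2 ± 10.9 (SD, n = 6). In the CB-like, S-phase, recycling-like and CC-like cells of that library the summed myeloid markers stood at 3250, 2040, 1910 and 2100, whereas the other 5 libraries lay between 655 and 1200 over these classes. *S100a8*, a granulocyte gene, was at 17.4 to 26.6 there and at 0 to 1.42 in the others, and *Lyz2* at 6.12 to 32.6 against 0 to 10.6. *C1qa*, a macrophage gene, was at 0 in these 4 classes of that library and reached 1.74 in the others. In its recycling-like cells, where *Dnmt3a* stood at 33.3, the T cell markers summed to 214 against 48.5 to 91.3 elsewhere, with *Cd3e* at 10.7 against at most 1.72 but *Trac* at 7.99, within the 1.04 to 8.61 of the others. *Csf1r* was at 0 in its CC-like cells, and *Tet2* (7.45) lay there within the other 5 libraries (2.41 to 9.37). In its naive or memory B-like cells *Dnmt3a* was the highest of the 6, while the myeloid sum of 3310 lay within the 3000 to 3650 of the others. Single genes differed there: *S100a8* was at 25.9 against 0, *Lyz2* at 16.6 against 2.09 to 9.79 and *Csf1r* at 1.23 against at most 0.85. *C1qa* at 3.7 lay within the 0 to 6.28 of the others. The part of myeloid or T cell RNA in these levels was not tested.

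**Figure D2:**
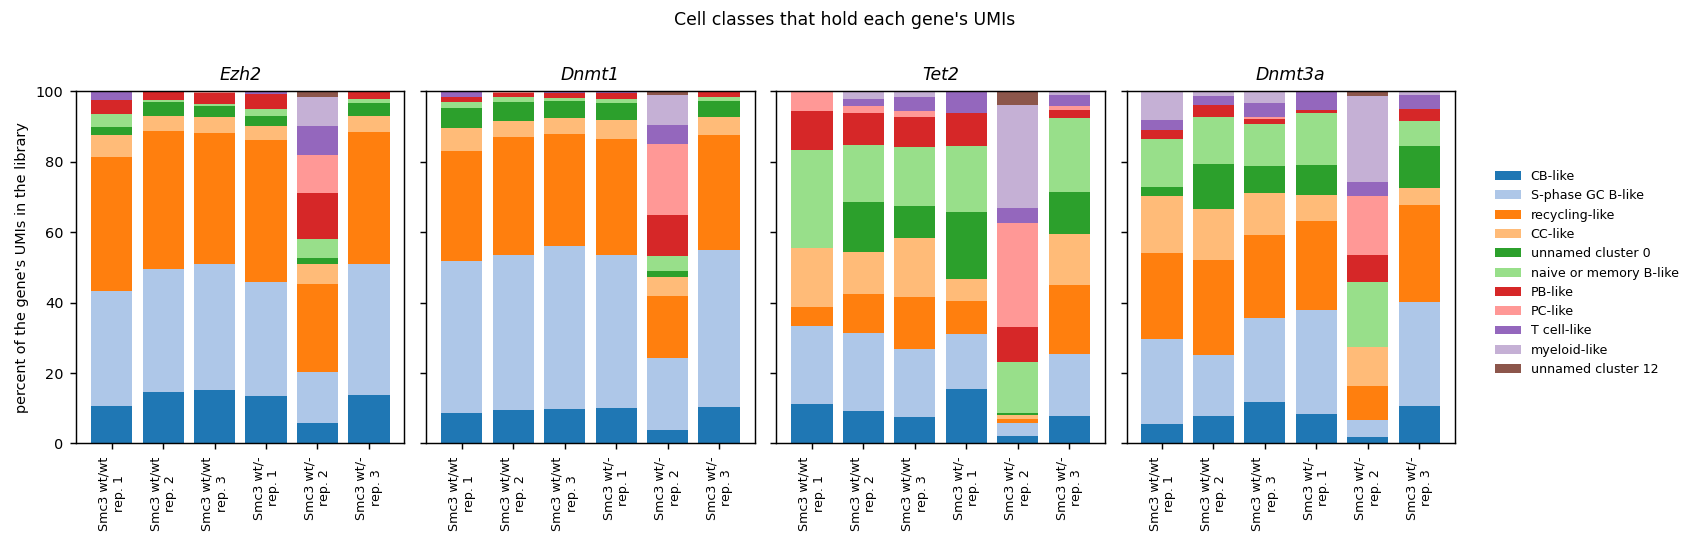
Share of each gene's UMIs (y axis, percent of the gene's UMIs in the library, bars stacked to 100) that came from each cell class (colors), for *Ezh2*, *Dnmt1*, *Tet2* and *Dnmt3a* in the 6 libraries (x axis). In 5 libraries most *Ezh2* and *Dnmt1* UMIs came from S-phase and recycling-like cells, while in *Smc3* wt/- replicate 2 plasma-lineage and myeloid-like cells held 39.5% and 29.5% of the *Tet2* UMIs.

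A level over all cells of a library therefore depended on which classes it held. Over all kept cells *Dnmt1* was at 146, 153 and 141 in the *Smc3* wt/wt libraries and at 130, 32.1 and 137 in the *Smc3* wt/- libraries, and *Ezh2* at 207, 209 and 212 against 207, 49.9 and 206. *Tet2* was at 14.7 in *Smc3* wt/- replicate 2 and at 2.36 to 3.94 elsewhere. S-phase cells held 43.0 to 46.2% of *Dnmt1* UMIs in the other 5 libraries and 20.3% in this one, and recycling-like cells 37.2 to 40.5% of *Ezh2* UMIs against 24.8%. At the level of all cells, a change in the mix of states and a change within a state cannot be told apart, so genotypes are compared within classes below.

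Among the enhancer regulators, *Kmt2d* and *Kmt2c* rose in naive or memory B-like cells. *Kmt2d* held 16.3, 20.4 and 19.9 there in the *Smc3* wt/wt libraries and 17.6, 21.6 and 24.6 in the *Smc3* wt/- libraries, each above its own CB-like value (14.0, 16.7 and 13 against 8.72, 19.0 and 15.3). The difference was 0.66 (SE 0.18, adjusted p = 0.00251). It lost the call without integration (0.39, adjusted p = 0.186). *Kmt2c* averaged 22.9 in naive or memory B-like and 19.7 in CB-like cells, higher in 3 of 6 libraries, with a fitted difference of 0.49 (SE 0.17, adjusted p = 0.0162) that did not pass without *Smc3* wt/- replicate 3 (0.33, adjusted p = 0.184), without a count filter (0.37, adjusted p = 0.121) or without integration (0.44, adjusted p = 0.053).

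The acetyltransferases *Crebbp* and *Ep300* were both lower in recycling-like and CC-like than in CB-like cells, and *Ep300* also in plasma-lineage cells, while neither passed the test in S-phase or naive or memory B-like cells. *Crebbp* fell from a mean of 39.8 in CB-like cells to 26.8 in CC-like cells, lower in 6 of 6 libraries (-0.48, SE 0.11, adjusted p = 0.000888). Its recycling-like difference of -0.22 (SE 0.09, adjusted p = 0.0452) was lost without *Smc3* wt/wt replicate 1 (-0.22, adjusted p = 0.0645) or 3 (-0.20, adjusted p = 0.147) or *Smc3* wt/- replicate 3 (-0.22, adjusted p = 0.139), without a count filter (-0.19, adjusted p = 0.239) and at the finer resolution (-0.17, adjusted p = 0.17). *Ep300* fell from 36.4 to 24.5 in recycling-like cells (-0.38, SE 0.10, adjusted p = 0.00118), to 26.3 in CC-like cells (-0.31, SE 0.12, adjusted p = 0.0303) and to 18.9 in plasma-lineage cells (-0.42, SE 0.13, adjusted p = 0.0105), lower in 6 of 6 libraries each time. The CC-like call was lost without *Smc3* wt/wt replicate 1 (-0.24, adjusted p = 0.0739) or 2 (-0.35, adjusted p = 0.0685) or *Smc3* wt/- replicate 3 (-0.30, adjusted p = 0.109) and without a count filter (-0.36, adjusted p = 0.0643).

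*Hdac3*, the NCoR deacetylase, averaged 71.8 to 78.4 in the 4 GC classes, 53.7 in naive or memory B-like cells and 46.3 in plasma-lineage cells. It fell by 0.38 in the former (SE 0.11, adjusted p = 0.00445) and by 0.31 in the latter (SE 0.11, adjusted p = 0.0167), lower in 6 of 6 libraries both times, and the second call was lost without *Smc3* wt/- replicate 3 (-0.25, adjusted p = 0.101). *Arid1a* stood at 51.6, 72.3 and 70.8 in S-phase cells of the *Smc3* wt/wt libraries and at 56.4, 64.2 and 62.8 in those of the *Smc3* wt/- libraries, against 33.1, 54.9 and 49.7 and 46.4, 68.0 and 50.0 in CB-like cells. It was higher in 5 of 6 libraries (0.41, SE 0.09, adjusted p = 0.000481), but only by 0.04 (adjusted p = 0.794) at the finer resolution. Its naive or memory B-like value of 0.29 (SE 0.11, adjusted p = 0.0242) became -0.02 (adjusted p = 0.93) without integration and was lost without *Smc3* wt/wt replicate 1 (0.24, adjusted p = 0.073) or 3 (0.26, adjusted p = 0.102) or *Smc3* wt/- replicate 2 (0.22, adjusted p = 0.0886) or 3 (0.26, adjusted p = 0.108), at the finer resolution (0.06, adjusted p = 0.666), without a count filter (0.16, adjusted p = 0.445) and with doublets kept (0.25, adjusted p = 0.0525).

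**Figure D3:**
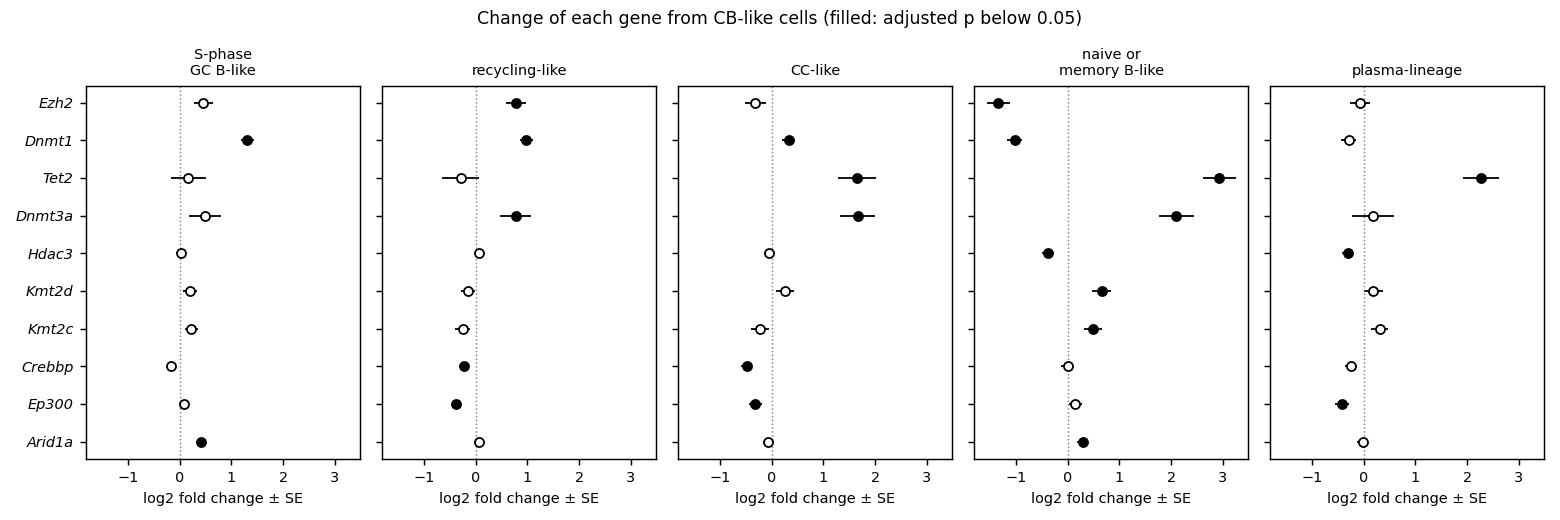
Fitted log2 fold change from CB-like cells (x axis, points, with bars of 1 SE) of the 10 genes (y axis) in the 5 other classes (panels), 6 libraries each; filled points passed an adjusted p of 0.05. *Tet2* reached 2.93 and *Dnmt3a* 2.10 in naive or memory B-like cells, where *Ezh2* and *Dnmt1* stood at -1.34 and -1.02, and most other points lay near 0.

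State differences were common among all genes, and the counts of the 10 genes are read beside that background. In S-phase cells 2 of the 10 rose (*Dnmt1*, *Arid1a*) where 16.3% of all 8801 tested genes rose and 13.5% fell. In recycling-like cells 3 rose (*Ezh2*, *Dnmt1*, *Dnmt3a*) and 2 fell (*Crebbp*, *Ep300*), beside 29.8% and 29.4%. In CC-like cells 3 rose (*Tet2*, *Dnmt3a*, *Dnmt1*) and 2 fell (*Crebbp*, *Ep300*), beside 26.3% and 18.8%. In naive or memory B-like cells 5 rose (*Tet2*, *Dnmt3a*, *Kmt2d*, *Kmt2c*, *Arid1a*) and 3 fell (*Ezh2*, *Dnmt1*, *Hdac3*), beside 29.7% and 24.2%. In plasma-lineage cells 1 rose (*Tet2*) and 2 fell (*Ep300*, *Hdac3*), beside 35.7% and 27.0%. A share near the background is not particular to the 10 genes, and no test of the list was made.

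Some of these counts moved with a setting. In plasma-lineage cells DESeq2 and its size factors called 5 of the 10, beside 63.1% and 62.9% of all genes, with *Crebbp* (-0.36, adjusted p = 0.0117) and *Dnmt1* added. Without *Smc3* wt/- replicate 2, 5 passed in S-phase cells, beside 44.3% of all genes. Fold changes are relative to the scaling: TMM placed the median of all genes 0.45 above plain log2 levels in plasma-lineage cells, 0.20 above in naive or memory B-like cells and 0.10 above in CC-like cells. On plain levels all called differences of the 10 genes kept their direction. Some differences that were not called turned. In plasma-lineage cells *Kmt2d*, *Kmt2c* and *Dnmt3a* went from 0.19, 0.31 and 0.18 to -0.66, -0.35 and -0.05. In S-phase cells *Tet2* and *Ep300* went from 0.17 and 0.08 to -0.03 and -0.04, and *Hdac3* from 0.03 to 0.00. In recycling-like cells *Hdac3* and *Arid1a* went from 0.07 and 0.06 to -0.06 and -0.09, and in naive or memory B-like cells *Ep300* went from 0.15 to -0.14.

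The order of the 6 classes was examined for each gene by comparing neighbours over the 6 libraries (50 pairs, exact two-sided sign permutation test). The smallest p that 6 libraries allow is 0.0312, which gave 0.13 after Benjamini-Hochberg adjustment, so no pair could be called. Classes were ordered by the means of these same libraries, so the direction of each pair was not chosen independently of them. In 12 pairs all 6 libraries agreed in direction. All 5 neighbour pairs of *Dnmt1* were among them, and 3 of *Ezh2* (recycling-like over S-phase, S-phase over CB-like and CC-like over naive or memory B-like). The others were *Tet2* in naive or memory B-like over plasma-lineage cells, *Kmt2d* in CB-like over recycling-like, *Crebbp* in recycling-like over CC-like and *Dnmt3a* in S-phase over CB-like cells. *Hdac3* and *Arid1a* had no such pair, nor did *Kmt2c* and *Ep300*.

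The partners of the 10 proteins were read from 7 lists, which include the genes themselves. Of 94 genes on any list, 89 were tested. In naive or memory B-like cells 20.2% rose and 41.6% fell, in plasma-lineage cells 22.5% and 37.1%, and in S-phase cells 23.6% and 6.74%, beside the shares of all genes above.

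For DNA methylation, 3 of 8 tested genes rose and 5 fell in recycling-like cells (median -0.24, all genes -0.02). *Uhrf1*, which brings DNMT1 to replicated DNA, followed *Dnmt1*: it rose by 1.64 in S-phase cells (SE 0.20, adjusted p = 5.11e-08) and by 1.61 in recycling-like cells (SE 0.20, adjusted p = 1.78e-08). It was at 122 to 168 in S-phase and 43.5 to 66.3 in CB-like cells, with no overlap. *Mbd2*, a reader of methylated DNA, fell by 1.78 in CC-like cells, by 2.32 in naive or memory B-like cells and by 1.67 in plasma-lineage cells (adjusted p = 2.81e-10, 5.41e-12 and 7.57e-10). The list as a whole had 2 higher and 4 lower genes in naive or memory B-like cells (median -0.67, all genes 0.05).

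For DNA demethylation, 2 of 6 genes rose and 4 fell in naive or memory B-like cells (median -0.95). *Tet3*, another TET enzyme, rose there with *Tet2* (0.73, SE 0.17, adjusted p = 0.000357) and in CC-like cells (0.73, SE 0.15, adjusted p = 0.00014), but fell by 1.23 in plasma-lineage cells (SE 0.22, adjusted p = 1e-05), where *Tet2* rose. *Mbd4*, a glycosylase that removes mismatched thymine at CpG sites, fell by 2.38 in naive or memory B-like cells and by 2.11 in plasma-lineage cells (adjusted p = 7.83e-15 and 1.12e-14). *Idh1* fell by 1.30 in S-phase cells (adjusted p = 1.87e-09), and *Idh2* rose by 1.22 in plasma-lineage cells (adjusted p = 2.28e-06), or by 0.70 without *Smc3* wt/- replicate 2. Both encode enzymes that make the 2-oxoglutarate which TET proteins need.

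Within PRC2, 6 of 11 genes rose and 3 fell in recycling-like cells (median 0.25, all genes -0.02). The core subunit *Suz12* rose with *Ezh2* (0.80, SE 0.11, adjusted p = 8.18e-08), and the histone binding subunit *Rbbp7* rose by 0.89 (adjusted p = 6.63e-07). In naive or memory B-like cells 4 rose and 7 fell (median -0.44). There *Ezh1*, the paralog that stands in for *Ezh2* in resting cells, rose by 1.32 (SE 0.22, adjusted p = 5.23e-06) as *Ezh2* fell. *Ezh1* was at 32.6, 15.3 and 19.9 in the *Smc3* wt/wt libraries and at 27.2, 14.8 and 10.5 in the *Smc3* wt/- libraries, against 5.23, 6.70 and 8.75 and 6.88, 5.44 and 9.91 in CB-like cells, with no overlap. The accessory subunits split as well. *Phf1* (2.17, adjusted p = 3.99e-06) and *Jarid2* (1.68, adjusted p = 9.35e-09) rose, while *Phf19* (-2.10, adjusted p = 3e-07) and *Mtf2* (-1.73, adjusted p = 2.61e-13) fell. *Phf1* averaged only 3.73 in CB-like cells. *Ezh1* rose by 1.0 in plasma-lineage cells too (SE 0.23, adjusted p = 0.000376), where *Phf19* fell by 2.19 (adjusted p = 1.5e-07).

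In the BAF list 3 of 21 genes rose and 9 fell in naive or memory B-like cells (median -0.15), and 4 rose and 10 fell in plasma-lineage cells (median -0.23, all genes 0.08). The ATPase *Smarca4* moved far more than *Arid1a*. It was at 291, 311 and 311 in CB-like cells of the *Smc3* wt/wt libraries and at 261, 92.5 and 299 in those of the *Smc3* wt/- libraries, and at 71.8, 46.8 and 57.5 against 52.7, 29.6 and 62.3 in naive or memory B-like cells, a fall of 2.09 (SE 0.11, adjusted p = 9.52e-17). It fell by 1.56 in CC-like and by 1.16 in plasma-lineage cells (adjusted p = 3.42e-14 and 3.35e-12). Its alternative *Smarca2* rose by 1.47 in naive or memory B-like cells (SE 0.16, adjusted p = 2.43e-09) and by 0.86 in plasma-lineage cells (SE 0.18, adjusted p = 7.56e-05), higher in 6 of 6 libraries both times. *Bcl7a*, another subunit, fell by 2.49 in plasma-lineage cells (adjusted p = 1.26e-14), and *Smarcc1* rose by 0.68 in recycling-like cells (adjusted p = 4.89e-08).

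In the H3K4 methylation list 8 of 16 genes rose and 1 fell in recycling-like cells (median 0.32). *Paxip1*, a KMT2C and KMT2D partner, rose by 0.98 there and by 1.03 in S-phase cells (adjusted p = 2.59e-07 and 3.41e-07), whereas neither methyltransferase was called in either class. The one gene that fell in recycling-like cells was *Kmt2a* (-0.73, SE 0.12, adjusted p = 2.47e-06). It also fell by 0.83 in CC-like, by 0.75 in naive or memory B-like and by 1.36 in plasma-lineage cells (adjusted p = 4.98e-06, 3.2e-05 and 1.28e-09). *Setd1b* rose by 2.47 in naive or memory B-like and by 1.53 in plasma-lineage cells (adjusted p = 6.07e-08 and 0.000449). It was low in CB-like cells (mean 5.53, 1.74 to 19.0), and its plasma-lineage level was higher in 5 of 6 libraries.

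Of 12 acetyltransferase genes, 1 rose and 6 fell in recycling-like cells and 1 rose and 5 fell in CC-like cells (medians -0.17 and -0.13). The riser was *Kat2a* in both (1.58 and 1.65, adjusted p = 2.01e-09 and 2.46e-08), against the direction of *Crebbp* and *Ep300*. It also rose by 0.84 in naive or memory B-like cells (adjusted p = 0.00499), a call lost without *Smc3* wt/wt replicate 3 (0.59, adjusted p = 0.0945). There it was higher in 4 libraries and lower in 2, with a plain log2 difference of 0.32. *Kat6b* rose by 1.61 in naive or memory B-like cells (adjusted p = 5.86e-05), from a mean of only 2.67 in CB-like cells. *Ncoa1* fell by 1.52 in plasma-lineage cells (adjusted p = 5.02e-07), or by 2.46 without *Smc3* wt/- replicate 2. In the deacetylase and NCoR list 2 of 15 rose and 6 fell in plasma-lineage cells (median -0.38). *Hdac8* fell by 1.38 there and by 1.27 in CC-like cells (adjusted p = 8.26e-09 and 5.9e-09), *Hdac2* rose by 0.93 in recycling-like cells (adjusted p = 1.82e-08), and the NCoR subunit *Tbl1x* (1.52, adjusted p = 1.27e-11) rose in CC-like cells. *Hdac3* was called in neither recycling-like nor CC-like cells.

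Likeness of pattern was measured as Pearson's r between mean log2 levels over the 6 classes, which share libraries and depth. Among 8800 other genes the nearest to *Dnmt1* was *Msh6* (r = 0.999), a mismatch repair gene, and those near to *Ezh2* included *Rnaseh2b* and *Rfc5* (r = 0.994 and 0.99), which act in DNA replication or the removal of ribonucleotides from DNA. The nearest to *Tet2* was *Ezh1* (r = 0.995). With 6 classes high values are frequent: 131 genes reached an r of 0.95 with *Dnmt1*, 134 with *Ezh2*, 50 with *Tet2* and 25 with *Dnmt3a*, whose nearest was *Cfp* (0.996). Nearest to *Kmt2d* was *Mbnl1* (r = 0.999), to *Crebbp* *Cdkn2d* (0.994), to *Ep300* *Map4k2* (0.997), to *Hdac3* *Ddx11* (0.998) and to *Arid1a* *Pbx3* (0.994). Within the 10 genes, r was 0.923 for *Ezh2* and *Dnmt1*, 0.92 for *Crebbp* and *Ep300* and -0.979 for *Tet2* and *Ezh2*.

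The genotype comparison asked whether loss of 1 *Smc3* allele changed the level of any of these genes within a state. The study had examined enhancer contacts of *Tet2* and *Kmt2d* in lymphomas with and without this loss. In further lymphomas it reported lower *Tet2* mRNA by quantitative RT-PCR after the loss. It also reported lower expression of genes that fall when *Tet2* or *Kmt2d* is lost, but no consistent fall of *Kmt2d* mRNA itself. Those are tumors and not the cells compared here. None of the 10 genes passed in any of the 6 classes with edgeR's quasi-likelihood test, and none had an unadjusted p under 0.05 in this fit. The background was no call either: 0.0% of all tested genes passed in each class, with 238, 225, 142, 128, 122 and 222 genes at an unadjusted p under 0.05 in CB-like, S-phase, recycling-like, CC-like, naive or memory B-like and plasma-lineage cells. DESeq2 called 1 gene in CB-like cells, 1 in S-phase cells and 0 in the other classes, and none of them was among the 10. The fitted differences ran from -0.29 (*Kmt2c*) to 0.59 (*Dnmt3a*) in CB-like cells and from -0.77 (*Dnmt1*) to 0.34 (*Hdac3*) in naive or memory B-like cells. All 10 were tested in 4 classes, 9 in CB-like cells, where *Tet2* did not pass the count filter, and 7 in plasma-lineage cells, where *Tet2*, *Kmt2d* and *Dnmt3a* did not. Sex was unevenly spread over the genotypes. With sex as a covariate in edgeR, *Dnmt3a* differed by 1.37 in S-phase (unadjusted p = 0.0168) and 1.49 in recycling-like cells (unadjusted p = 0.0123). *Ezh2* in plasma-lineage cells then differed by -1.22 (unadjusted p = 0.02). The other tested values of the 10 genes kept an unadjusted p over 0.05.

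*Dnmt1* had a negative difference in all 6 classes, none called. In S-phase cells the *Smc3* wt/wt libraries (214 to 227) and the *Smc3* wt/- libraries (148 to 200) did not overlap, and the difference was -0.26 (SE 0.14, edgeR adjusted p = 1.0), or -0.20 without *Smc3* wt/- replicate 2. In CC-like cells the levels overlapped as given above (103 to 116 against 62.1 to 113) but not after TMM scaling, with a difference of -0.17 (SE 0.18) that became -0.06 without that library. *Dnmt3a* was higher without overlap in CB-like cells (3.67 to 13.6 against 2.59 to 3.49), with a difference of 0.59 (SE 0.47, adjusted p = 1.0) that became 0.34 without it. On TMM-scaled levels the share of all tested genes whose genotypes did not overlap was 9.31% in CB-like, 9.39% in S-phase, 7.85% in recycling-like, 8.31% in CC-like, 7.12% in naive or memory B-like and 10.5% in plasma-lineage cells. The 10 genes gave 1 such gene in CB-like, S-phase and CC-like cells each, and 0 in the other classes, where the count for plasma-lineage cells covers only the 7 that were tested and so leaves out *Tet2*.

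**Figure D4:**
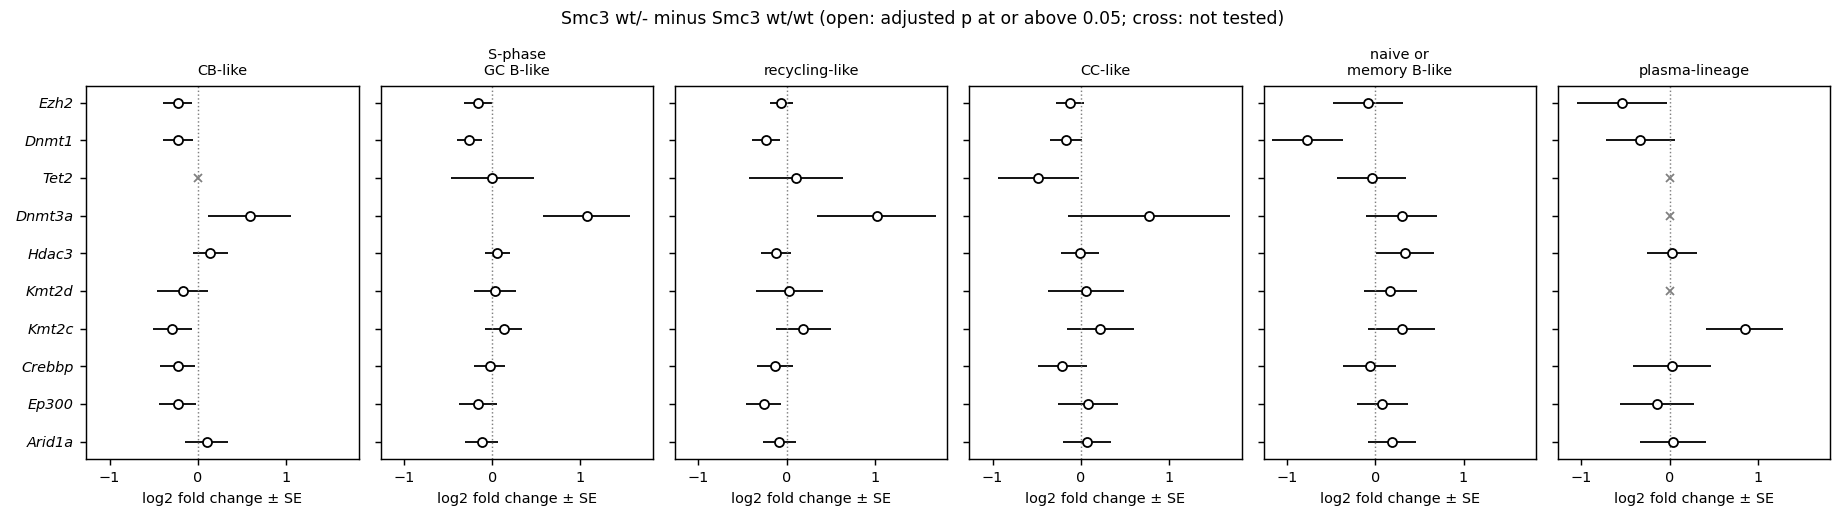
Fitted log2 difference between genotypes (x axis, *Smc3* wt/- minus *Smc3* wt/wt, points, with bars of 1 SE, 3 libraries each) of the 10 genes (y axis) in the 6 classes (panels); open points did not pass an adjusted p of 0.05 and crosses were not tested. All points are open, and *Dnmt3a* has the highest value in 4 panels, up to 1.07 in S-phase cells.

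Several differences moved without *Smc3* wt/- replicate 2, the library with the myeloid transcripts given above. *Dnmt3a* differed by 1.07 in S-phase (SE 0.49), 1.02 in recycling-like (SE 0.67) and 0.77 in CC-like cells (SE 0.92). Without that library these were 0.74, 0.28 and -0.86, so the CC-like value changed sign. The S-phase value was smaller but had a lower unadjusted p in edgeR (0.0383 against 0.0573), and it was not called either way. *Dnmt1* in naive or memory B-like cells went from -0.77 (SE 0.40) to -0.42, *Kmt2c* in plasma-lineage cells from 0.85 (SE 0.44) to 0.34 and *Ezh2* in plasma-lineage cells from -0.54 (SE 0.51) to -0.09. *Kmt2d* lay between -0.17 and 0.17 in the 5 classes tested. *Tet2* lay at -0.00, 0.11, -0.48 and -0.04 in S-phase, recycling-like, CC-like and naive or memory B-like cells, with SEs of 0.47, 0.53, 0.46 and 0.39, so changes of that size were not detectable at this depth.

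In plasma-lineage cells *Tet2* was at 10.7, 13 and 10.5 in the *Smc3* wt/wt libraries and at 4.73, 10.3 and 3.46 in the *Smc3* wt/- libraries. These did not overlap, but they rested on 3, 11 and 12 UMIs against 3, 87 and 3, and the class joins plasmablast-like and plasma cell-like cells in unequal shares. Within plasmablast-like cells the genotypes overlapped (8.23, 11.8 and 9.76 against 4.98, 11.5 and 2.47), as they did within plasma cell-like cells. Whether the genotype difference itself changed between states was tested with an interaction term. For plasma-lineage against CB-like cells *Tet2* gave -1.88 (SE 0.69, edgeR adjusted p = 0.929), -1.44 without *Smc3* wt/- replicate 2 and -0.60 without integration. It was the only 1 of 9 tested genes of the set with an unadjusted p under 0.05, which it did not keep without that library. Of all genes 0.0% passed there (303 at an unadjusted p under 0.05, 0 by DESeq2), and 0.0428% passed for CC-like against CB-like cells. None of the 10 was called in either, by edgeR or DESeq2, and for CC-like cells none had an unadjusted p under 0.05.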

How the data were processed

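Libraries were made with a 3′ droplet protocol, and the authors deposited raw UMI counts per gene and barcode from Cell Ranger 3.0.2 (mm10), one matrix per library. The submitters' notes also name R 4.0.2 and Seurat 4.0.0. Barcodes with at least 500 genes and at most 10% mitochondrial UMIs were kept (21568 of 22939), and 721 called doublets were removed. Cells were integrated by reciprocal PCA and clustered in Seurat 5.3.0 (1886 of 2000 variable genes, 30 components, 20 neighbours, resolution 0.5). Clusters were named from at least 3 fixed markers among their 10 leading genes.

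Counts were summed per library and class, without 393 immunoglobulin features, where at least 20 cells were present. Sums were tested with edgeR 4.0.16 (quasi-likelihood, TMM, Benjamini-Hochberg at 0.05), with the library as block for states. DESeq2 1.42.0 and the other settings of the closing section were alternatives. Fewer transcripts per cell and a smaller share of the RNA cannot be told apart on this scale. All 10 genes, *Smc3*, up to 2 highest and 2 lowest called genes per list and contrast, and the 3 genes most like each member were eligible to be named. The members and lists were chosen with earlier results of these data known. Promoter sequences are from RefSeq (GRCm38), and gene positions from the matching annotation. The statistics were tested on simulated data.

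Replicate numbers were checked as pairs by correlating same-numbered libraries' deviations from group means. All 3 correlations exceeded 0.1 in S-phase (0.231, 0.15 and 0.151) and in the naive or memory B-like class (0.314, 0.223 and 0.115), while replicate 2 stood at 0.0718 to 0.0844 in the other classes. Some genes that the naming rule would list are not reported here.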

Additional observations from a re-analysis of the deposited data

How the results depend on the processing

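Of the alternative values of the called differences of the 10 genes between states, 251 kept direction and side of the threshold, 38 lost the call and 3 turned. The latter were *Arid1a* in naive or memory B-like cells without integration (-0.02) and *Dnmt1* in CC-like cells at resolution 1 (-0.30) and without integration (-0.46). The cause was not tested.

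Calls among the 10 genes, each beside the share of all genes called in the same fit, were 2 in recycling-like cells at resolution 1 (61.3%), and without integration 8 in CC-like (37.2%), 5 in naive or memory B-like (56.1%) and 7 in plasma-lineage cells (63.0%). In plasma-lineage cells they were 5 under DESeq2 (63.1%), its size factors (RLE, 62.9%), no count filter (36.8%), immunoglobulin genes kept (62.2%) or resolution 1 (63.0%). Leaving out 1 library gave 2 to 5 calls in S-phase (19.2 to 44.3%, or 1679 to 4150 genes), 3 to 5 in recycling-like (50.2 to 66.2%), 3 to 6 in CC-like (35.5 to 51.6%), 6 to 8 in naive or memory B-like (45.8 to 56.0%) and 3 to 5 in plasma-lineage cells (56.8 to 62.8%).

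Genotype calls over all genes were 0, but 1 in CB-like cells under DESeq2, without integration or with doublets kept, 2 there without a count filter, and 1 in S-phase cells under DESeq2. Without a count filter they were 22 in CC-like, 13 in naive or memory B-like and 43 in plasma-lineage cells. Interaction calls for CC-like cells (4) were 0 under DESeq2, 13 without a filter and 0 to 16 leaving out 1 library. For plasma-lineage cells they were 41 without a filter and 0 to 11. With the replicate number as a block, the pairing left 0 genotype calls in each class. Without integration, S-phase and recycling-like cells were not tested, since *Smc3* wt/- replicate 2 had 17 and 14 cells. Counted as UMIs per cell, a scale added after seeing the data, the class with the highest mean moved for 9 genes. Counts of *Tet2* and *Dnmt3a* limit what could be detected.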

Other observations

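The unnamed cluster led by haemoglobin genes entered no comparison. Its mean levels in CPM outside immunoglobulin genes were 68.7 ± 9.49 for *Ezh2*, 74.0 ± 34.9 for *Dnmt1*, 3.41 ± 1.92 for *Tet2*, 4.42 ± 2.69 for *Dnmt3a* and 31.8 ± 15.9 for *Kmt2d* (SD, n = 6). *Kmt2c* stood at 24.2 ± 8.61, *Crebbp* at 45.7 ± 6.26, *Ep300* at 38.2 ± 7.74, *Hdac3* at 55.3 ± 26.0 and *Arid1a* at 58.8 ± 6.10.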
